A study of Mus musculus with 5 samples.

Results

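The difference in gene expression between a complex environment (CE) and a locked disk (LD) was examined in the mouse dentate gyrus (DG), gene by gene and by gene family. For each gene, the regularized log (rlog) value of the LD library was subtracted from that of the CE library, and the 13550 genes with a mean rlog value of at least 5 over the 5 libraries of the series were kept, of 23420 gene symbols in all. All mice were wild-type male CD1 mice, with an age of 4 months in the sample labels and 3 months in the study's methods. The LD mice were housed singly with a disk that could not turn, and the CE mice were housed 3 per cage with the same locked disk plus tunnels, both for 4 weeks. The other 3 libraries came from mice housed singly with a running disk: RUN held the RNA of all 8 runners, and L-RUN and H-RUN held the 4 that ran the shorter and the 4 that ran the longer distances. LD and CE were each 1 library of RNA pooled from 8 mice, so no replicate library existed and no p-value is given. CD1 is an outbred stock, and neither company and tunnels, nor housing and the particular mice in each pool, can be told apart in this design.

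The DG is the entry station of the hippocampus, where granule cells receive input from the entorhinal cortex and send it on to CA3, and it is known as a site of neurogenesis in the adult. Housing with companions and objects is known to act on this tissue through sensory, social and stress-related signals. The granule cells are embedded in a matrix of collagens and proteoglycans and lie close to the meninges and the choroid plexus, so that tissue dissected as DG also holds glia, vessels and some membrane.

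An rlog value is a log2 expression value that was shrunk towards the gene's mean over the libraries, so a difference between libraries is a log2 fold change that understates the change of lowly expressed genes. Read counts were not among the values, and the depth of each library is unknown. The error was taken from RUN, which should match H-RUN and L-RUN mixed in equal parts, and it came to a technical SD of 0.0365 for a difference between 2 libraries, from 0.0222 to 0.0473 by decile of expression. This covers library preparation and sequencing, not differences between mice. Markers of granule cells were present in both libraries: the transcription factor gene Prox1 was at 12.01 in LD and 11.86 in CE, Calb1 (calbindin) at 13.04 and 12.94, and the desmosomal gene Dsp at 12.37 and 12.18. In bulk tissue, fewer cells of a type and less RNA per cell cannot be told apart.

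Most genes differed little between CE and LD. The median difference was -0.0018, the SD over genes was 0.0955, and 73.2% of genes lay within 0.1 of no difference. The spread was still wider than the technical error, and 3213 genes (23.7%) differed by more than 3 technical SD of their decile, 1451 of them higher and 1762 lower in CE. The ratio of the spread to the technical SD was 1.57 in the decile with the lowest expression and 4.98 in the highest. At the cut-off of 0.3 that the study used, which is 1.23-fold, 81 genes (0.598% of the 13550) were called, with 45 (0.332%) higher and 36 (0.266%) lower in CE. The smallest of these calls was 6.4 technical SD in size and the median was 10.2. At a lower cut-off of 0.2 (1.15-fold), 265 genes (1.96%) were higher and 246 (1.82%) lower.

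**Figure D1:**
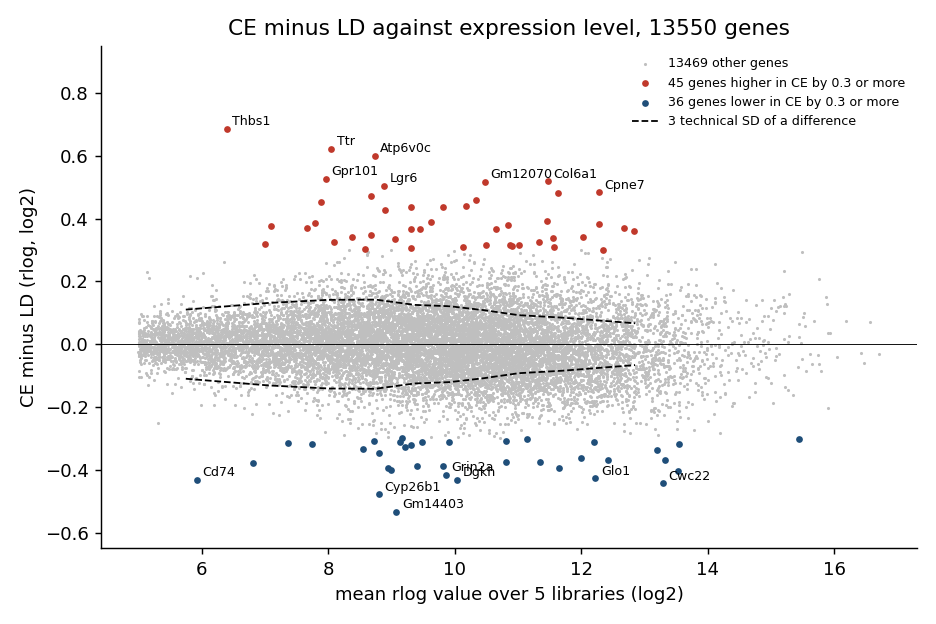
CE minus LD (rlog, log2) against the mean rlog value over the 5 libraries for 13550 genes, 1 point per gene. The 45 genes higher in CE by 0.3 or more are red and the 36 lower are blue, and dashed lines mark 3 technical SD, between which most genes lie.

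The running libraries were used to place CE and LD within the 5 libraries. Among the 45 genes called higher, CE was the highest of all 5 libraries for 35 genes, whereas LD was the lowest for 22. Among the 36 genes called lower, LD was the highest of all 5 libraries for 33, whereas CE was the lowest for 14. For most higher calls CE thus lay at the top of the 5 libraries, and for most lower calls LD did, with CE among or near the runners. Over all 13550 genes, CE was the highest library for 22.9% and the lowest for 21.7%, and LD was the highest for 28.1% and the lowest for 25.8%. These shares are no like measure for the called genes, because a call itself sets CE and LD apart. RUN, L-RUN and H-RUN share their 8 mice and are not independent of each other. Counting only genes set at least 0.2 apart from all 4 other libraries, CE lay above them for 50 genes (0.369%) and below them for 6 (0.0443%), and LD lay above them for 61 (0.45%) and below them for 12 (0.0886%).

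**Figure D2:**
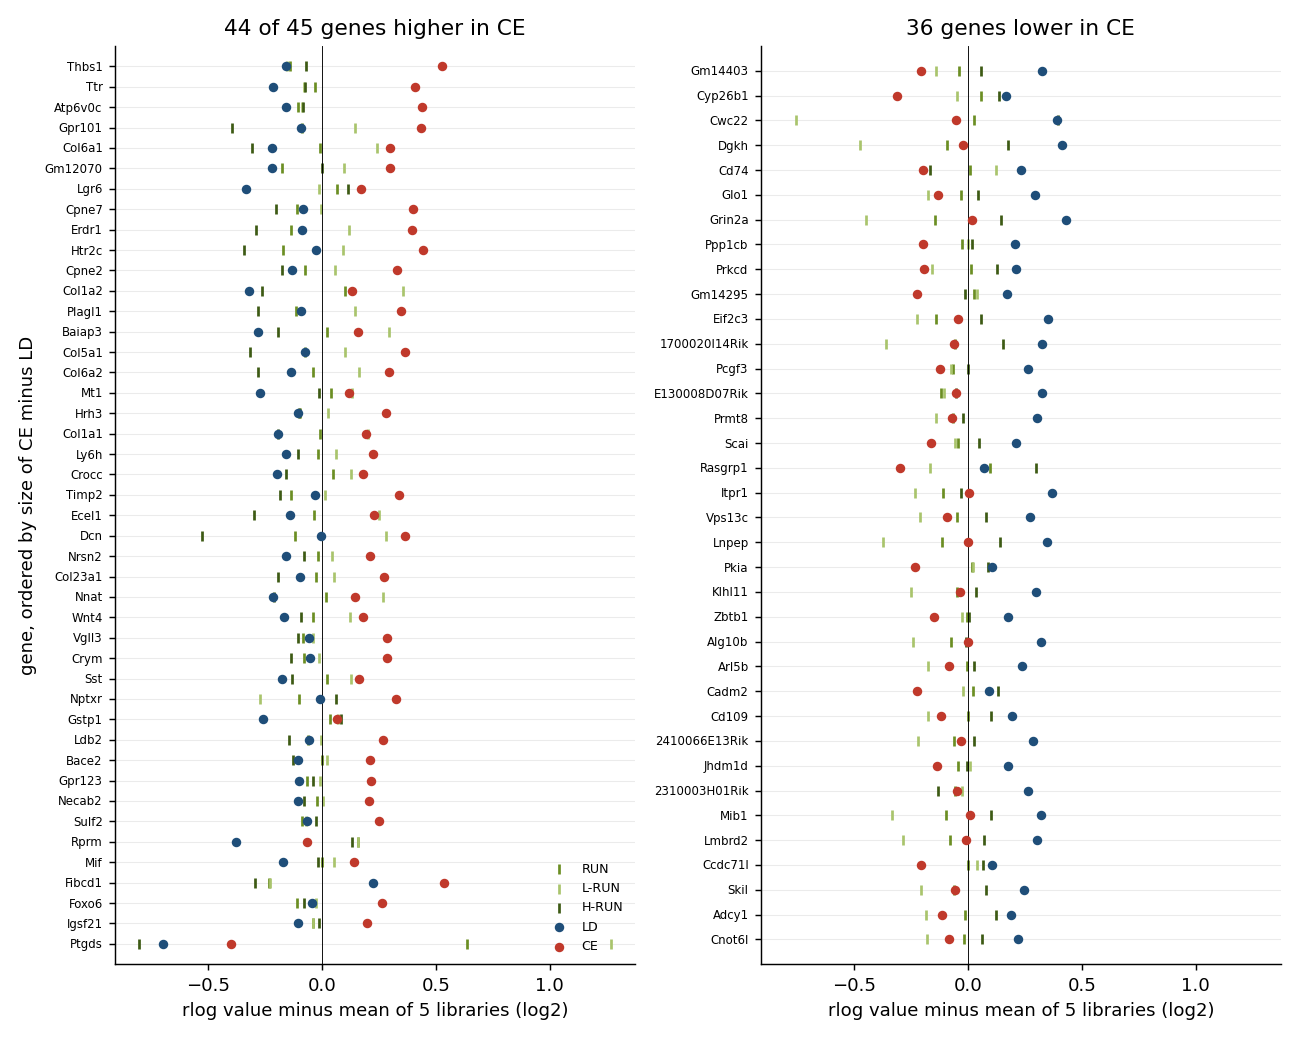
Rlog value minus the mean of the 5 libraries (log2) for 44 of the 45 genes called higher (left) and the 36 called lower (right), ordered by size, with dots for CE and LD and bars for the 3 running libraries. For 35 genes on the left the CE dot lies to the right of all other marks, and for 33 genes on the right the LD dot does.

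Thbs1 had the largest difference of all genes. It encodes thrombospondin 1, a secreted matrix protein that binds TGF-beta and that astrocytes use to promote synapses. Its value was 6.92 in CE against 6.24 in LD, 6.26 in RUN, 6.32 in H-RUN and 6.24 in L-RUN, a difference from LD of 0.69 (1.61-fold), and the other 4 libraries lay close together. Ttr, the carrier of thyroxine and retinol in plasma and cerebrospinal fluid, was at 8.45 in CE, 7.83 in LD, 8.01 in RUN and 7.97 in both L-RUN and H-RUN. Atp6v0c, the proton-conducting ring subunit of the vacuolar ATPase, was at 9.18 in CE and between 8.58 and 8.65 in the other libraries. In all 3 genes CE stood alone above a tight group of 4, and the differences from LD were 0.62 for Ttr and 0.60 for Atp6v0c.

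A second set of genes was also highest in CE, but with L-RUN raised towards it and H-RUN low. The orphan receptor gene Gpr101 was at 8.39 in CE, 7.87 in LD and RUN, 7.56 in H-RUN and 8.10 in L-RUN. Htr2c, the serotonin 2C receptor, was at 9.12 in CE, 8.65 in LD, 8.51 in RUN, 8.34 in H-RUN and 8.77 in L-RUN. Plagl1, an imprinted zinc finger gene that restrains growth, was at 10.52 in CE, 10.08 in LD, 10.06 in RUN, 9.89 in H-RUN and 10.32 in L-RUN. In each of these genes L-RUN lay closer to CE than LD did. Erdr1, a gene at the end of the X chromosome, had the same order (12.03 in CE, 11.55 in LD, 11.50 in RUN, 11.34 in H-RUN and 11.75 in L-RUN). For Dcn, the proteoglycan decorin, the values were 9.82 in CE and 9.45 in LD, with 9.34 in RUN, 8.93 in H-RUN and 9.74 in L-RUN, so its difference from LD (0.37) was smaller than the distance between the L-RUN and H-RUN pools.

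Few genes were lowest in CE alone. Cyp26b1, an enzyme that degrades retinoic acid, had a value of 8.49 in CE, 8.97 in LD, 8.86 in RUN, 8.93 in H-RUN and 8.75 in L-RUN. This was the largest distance of CE below its nearest library (0.26). Pkia, an inhibitor of protein kinase A, was at 12.97 in CE and between 13.22 and 13.31 in the other 4 libraries. The adhesion molecule gene Cadm2 was at 13.32 in CE and between 13.52 and 13.68 elsewhere, and Ccdc71l was at 10.61 against 10.81 to 10.92. Rasgrp1, which activates Ras in response to diacylglycerol, was at 13.03 in CE, 13.40 in LD, 13.42 in RUN, 13.63 in H-RUN and 13.16 in L-RUN. CE was the lowest library for all 5 of these genes, but for Rasgrp1 it was only 0.13 below L-RUN.

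For most genes called lower, the LD library was the one set apart. Itpr1, the receptor through which inositol trisphosphate (IP3) releases calcium from the endoplasmic reticulum, was at 12.79 in LD, 12.42 in CE, 12.31 in RUN, 12.39 in H-RUN and 12.18 in L-RUN. Prmt8, an arginine methyltransferase of the neuronal plasma membrane, was at 11.12 in LD and between 10.67 and 10.79 in the other 4 libraries. Alg10b, a glucosyltransferase of protein glycosylation, was at 9.63 in LD and between 9.07 and 9.31 elsewhere. CE lay within the range of the running libraries for Prmt8 and just above their highest value for Itpr1 and Alg10b, and Alg10b was no longer called with the GC trend removed (-0.26). Grin2a, the GluN2A subunit of the NMDA receptor, was also highest in LD, with a wider spread and with H-RUN above CE (10.30 in LD, 9.88 in CE, 9.72 in RUN, 10.01 in H-RUN and 9.42 in L-RUN). The noncoding RNA gene E130008D07Rik had the largest distance of LD above its nearest library (7.14 in LD, 6.76 in CE and H-RUN, 6.69 in RUN and 6.70 in L-RUN).

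A smaller set of genes was lowest in LD alone, again with CE close to the runners. Lgr6, a receptor for R-spondins that strengthens Wnt signaling, was at 8.55 in LD, 9.05 in CE, 8.95 in RUN, 8.997 in H-RUN and 8.87 in L-RUN. Rprm (reprimo, a cell cycle inhibitor downstream of p53) was at 10.53 in LD, 10.84 in CE and between 11.04 and 11.06 in the running libraries. Gstp1, a glutathione transferase, was at 11.07 in LD and between 11.36 and 11.41 in the other 4. For Lgr6, Rprm and Gstp1 the distance of LD below its nearest library was 0.32, 0.31 and 0.30.

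The difference between CE and LD also followed the base composition and the length of transcripts, and these trends stand beside every gene group described here. Across the 13452 genes (99.3%) with an annotated transcript, CE minus LD had a Spearman's rho of 0.56 (Pearson's r 0.53) with GC content and -0.33 (r -0.31) with transcript length, as a description across genes that share the same pair of libraries. In 5 groups of genes from the lowest to the highest GC content, the median difference was -0.066, -0.035, -0.0061, 0.030 and 0.072. The numbers called higher were 4, 4, 3, 12 and 21, and the numbers called lower were 19, 7, 3, 3 and 3. The genes called higher had a median GC content of 55.1%, those called lower 43.4% and all genes 49.8%. With genes split likewise by transcript length, 22 of the 35 lower calls with an annotated transcript fell among the longest transcripts, and their median length was 6981 bases against 3519 for all genes.

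The trends differed among the libraries, and LD had both. With each library set against the mean of all 5, rho with GC content was 0.43 in CE, -0.39 in LD, 0.072 in RUN, -0.13 in H-RUN and 0.053 in L-RUN. The rho with transcript length was 0.49 in LD and 0.056 in CE, against -0.36 in RUN, 0.088 in H-RUN and -0.42 in L-RUN. RUN against the mixture of H-RUN and L-RUN, in which the mice are the same, had a rho of 0.11 with GC content and -0.030 with length. When the GC trend was removed with a smooth curve, 56 genes were called (32 higher and 24 lower), of which 50 were called before. Among the 31 that were no longer called were Fibcd1, Sst, Sulf2, Wnt4, Nnat, Hrh3, Rprm, Gstp1, Pkia and Cadm2. The part of GC content in these differences was not tested.

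**Figure D3:**
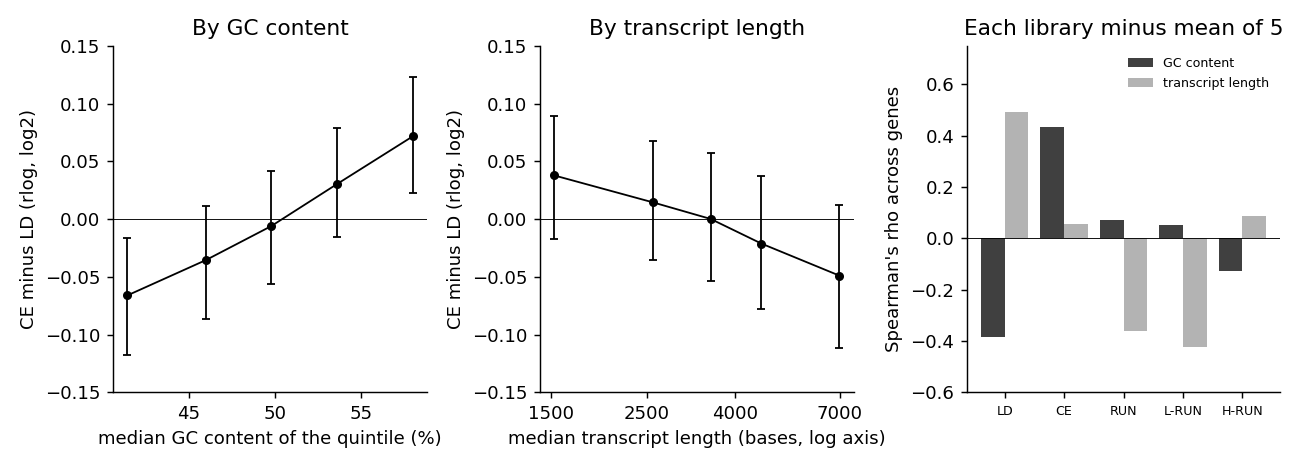
Median CE minus LD (rlog, log2) in 5 equal groups of genes by GC content (left) and by transcript length (middle), with bars from the lower to the upper quartile, and Spearman's rho across 13452 genes of each library minus the mean of 5 with GC content and length (right). The median goes from -0.066 to 0.072 with GC content, and CE and LD have GC trends of opposite sign.

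Genes were next grouped in 67 lists, 21 of markers of cell types or regions and 46 of families and functions. The median of a list is set here against the median of all genes, -0.0018, or -0.0074 after the GC trend was removed. The medians of the lists ran from -0.12 to 0.12. The counts of members called are read against the 0.332% and 0.266% of all genes called higher and lower.

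**Figure D4:**
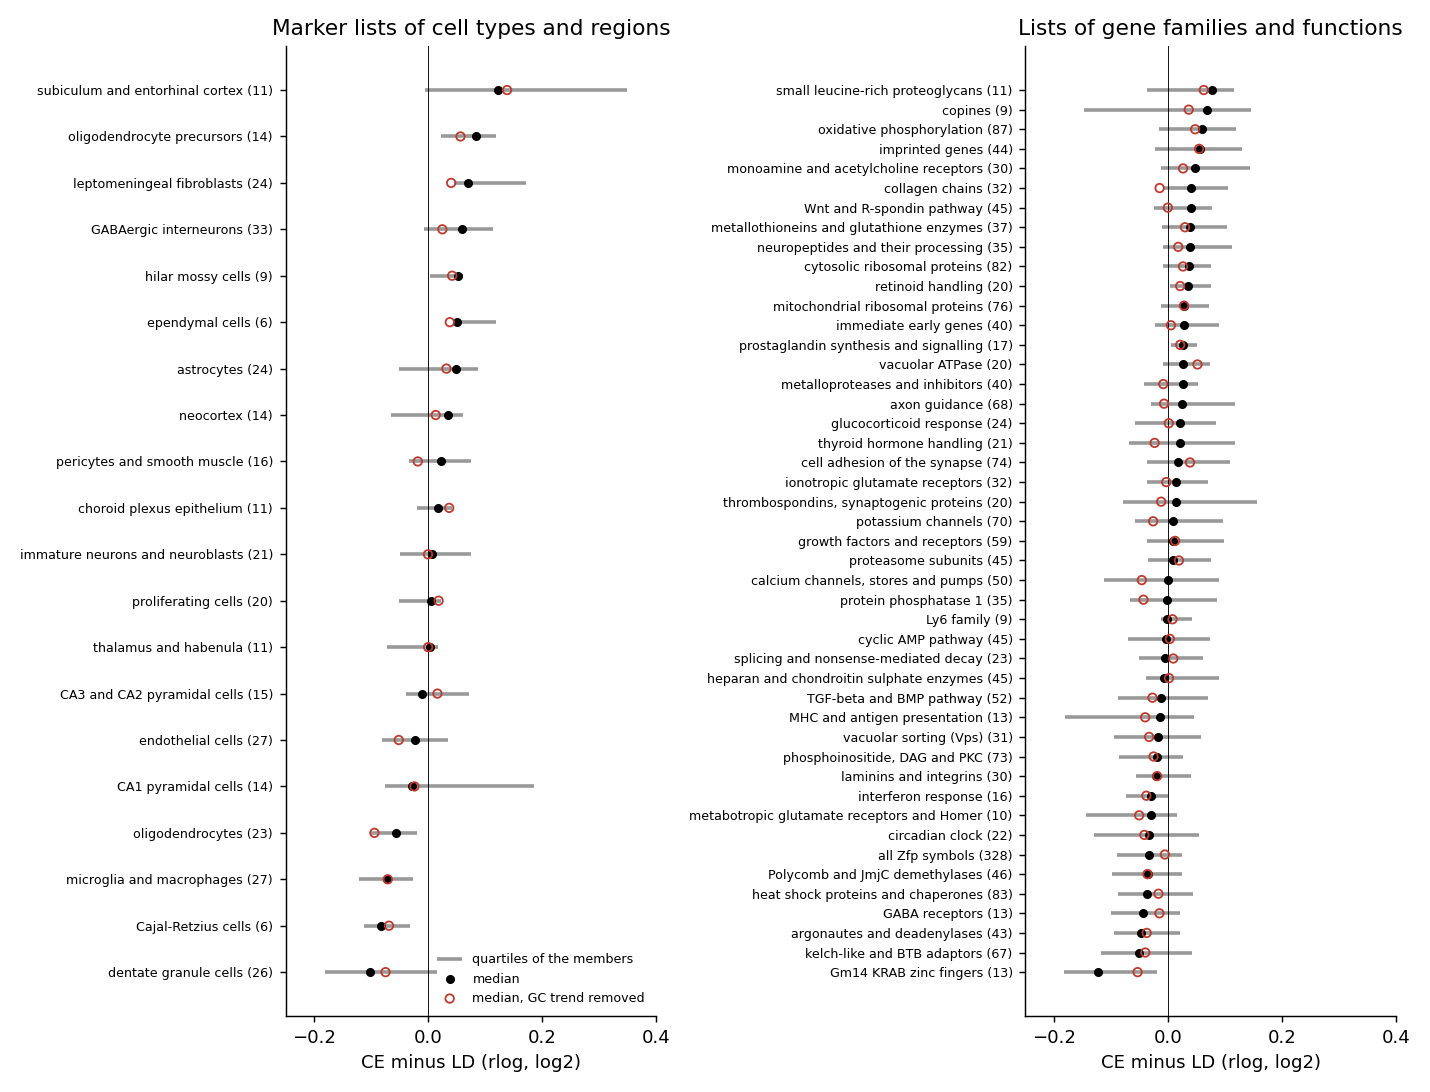
Median CE minus LD (rlog, log2) of each list, for markers of cell types and regions (left) and for families and functions (right), with the number of expressed members in brackets. Filled dots are medians, grey bars run from the lower to the upper quartile of the members, and open circles are medians after removal of the GC trend; the subiculum and entorhinal list is highest and the Gm14 zinc finger list is lowest.

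Genes of thyroid hormone and retinoid handling included several of the largest differences, on both sides. Of 21 expressed genes of thyroid hormone handling, 2 were called higher (Ttr and Crym) and 0 lower, and the median was 0.021 (-0.023 with the GC trend removed). Crym, a cytosolic protein that binds triiodothyronine, was at 12.31 in CE and between 11.89 and 12.01 in the other 4 libraries. The amino acid and thyroid hormone transporter gene Slc7a8 was at 11.22 in CE and between 10.93 and 11.01 elsewhere, just short of the cut-off (0.29). The 2 deiodinases of the brain lay on opposite sides. Dio2, which activates thyroxine, was at 10.80 in LD and between 10.41 and 10.52 in the other libraries (CE minus LD -0.28), and Dio3, which inactivates it, was at 6.99 in CE, 6.79 in LD, 6.69 in RUN, 6.55 in H-RUN and 6.81 in L-RUN (0.20). The transporter gene Slco1c1 and the coregulators Ncor1 and Med1 had differences from -0.10 to -0.087. Among 20 retinoid genes, Ttr was called higher and Cyp26b1 lower, and the synthesizing enzymes Aldh1a1, Aldh1a2 and Aldh1a3 had differences of -0.071, 0.066 and -0.020.

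Of the 3 expressed metallothionein genes, which encode small proteins that bind zinc and copper, Mt1 was called. Mt1 was at 11.18 in LD, 11.57 in CE, 11.49 in RUN, 11.44 in H-RUN and 11.58 in L-RUN, and Mt2 at 10.60 in LD, 10.85 in CE, 10.77 in RUN, 10.77 in H-RUN and 10.79 in L-RUN. Mt3, the neuronal form, was at 12.37 in LD, 12.56 in CE and between 12.58 and 12.67 in the running libraries. LD was the lowest library for all 3 genes, and CE lay among or near the runners. With the GC trend removed, the differences were 0.36 for Mt1, 0.19 for Mt2 and 0.077 for Mt3. Mt1 and Mt2 are neighbors on chromosome 8 and are known to be induced together by metals through metal response elements and by glucocorticoids. Their promoter windows, 250 bases before to 30 after a RefSeq start on GRCm38.p6, are printed 5′ to 3′ because these neighboring genes differed in the same direction. They lie at chr8:94178839-94179118 for Mt1 and chr8:94172368-94172647 for Mt2, both on the plus strand. The RefSeq span of Mt1 begins at 94178883, inside its window, so that window was set on a later start. Matches to TGCACNC or TGCGCNC on either strand are in capitals.
Mt1: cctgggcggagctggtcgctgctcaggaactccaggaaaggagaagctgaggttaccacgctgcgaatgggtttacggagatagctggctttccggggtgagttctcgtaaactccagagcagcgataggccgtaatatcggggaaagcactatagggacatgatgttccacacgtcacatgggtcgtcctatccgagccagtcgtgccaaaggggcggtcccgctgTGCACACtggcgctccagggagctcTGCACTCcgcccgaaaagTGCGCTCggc
Mt2: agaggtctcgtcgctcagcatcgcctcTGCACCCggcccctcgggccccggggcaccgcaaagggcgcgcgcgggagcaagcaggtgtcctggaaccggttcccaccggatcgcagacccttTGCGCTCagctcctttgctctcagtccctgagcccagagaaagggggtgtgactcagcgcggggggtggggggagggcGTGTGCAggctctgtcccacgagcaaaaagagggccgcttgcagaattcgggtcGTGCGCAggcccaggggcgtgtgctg
The Mt1 window held 3 matches, the Mt2 window 4 and the Mt3 window 0. Of 32851 windows of the same length, 24.1% held at least 1 match, 1.73% at least 3 and 0.405% at least 4. A match is a description of the sequence and not a measured binding site.

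The wider list of metallothioneins and glutathione enzymes had 37 expressed members with a median of 0.039. Mt1 and Gstp1 were called higher and Glo1 lower, and LD was the lowest library for 21 of the 37, against 25.8% of all genes. Transcripts of this list are short, with a median of 1351 bases against 3519 for all genes, and LD had a rho of 0.49 with length. With the GC and length trends removed, the median of the list was 0.023. Mgst3, a membrane-bound glutathione transferase and peroxidase, had a difference of 0.23. Glo1, which detoxifies methylglyoxal with glutathione, was at 12.52 in LD, 12.09 in CE, 12.19 in RUN, 12.27 in H-RUN and 12.05 in L-RUN, the opposite side from the transferases.

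Signaling by IP3, diacylglycerol and protein kinase C held more lower calls than any other list. The lists were chosen with earlier results of these data known, so this rank is no independent sign of the pathway. Of the 73 expressed genes of this list, 6 were lower and 0 higher at the cut-off of 0.2, and 4 were called lower and 0 higher. They were Itpr1, Rasgrp1, Dgkh and Prkcd, which handle IP3 or diacylglycerol or answer to it. Dgkh, a kinase that removes diacylglycerol, was at 10.45 in LD, 10.02 in CE, 9.95 in RUN, 10.22 in H-RUN and 9.57 in L-RUN. Prkcd, a protein kinase C that diacylglycerol activates, was at 9.20 in LD, 8.80 in CE, 9.002 in RUN, 9.11 in H-RUN and 8.83 in L-RUN. All 4 remained called with the GC trend removed (-0.43 to -0.34), but they were not alike across libraries, since LD was the highest for Itpr1, Dgkh and Prkcd and not for Rasgrp1. The median of the list was -0.019, so the other members did not share these differences. Prkcd is also a marker of the thalamus, and the other 10 expressed genes of that marker list had differences from -0.13 to 0.15, with Tcf7l2 at -0.021 and Slc17a6 at 0.011.

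Cyclic AMP and phosphatase genes followed. Adcy1, the calcium-stimulated adenylyl cyclase of granule cells, was at 15.62 in LD, 15.32 in CE, 15.42 in RUN, 15.56 in H-RUN and 15.25 in L-RUN, and with Pkia it made up the 2 lower calls among 45 genes of the cyclic AMP pathway, which had 0 higher calls and a median of -0.0027. Ppp1cb, a catalytic subunit of protein phosphatase 1, was at 13.74 in LD, 13.33 in CE and between 13.50 and 13.55 in the runners. It was the 1 member called of 35 in its list. CE and LD lay at the 2 ends for Ppp1cb, with the runners between them.

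Glutamate receptors gave 1 lower call (Grin2a) and 0 higher calls among 32 expressed ionotropic subunits and their partners. Grin2b, the GluN2B subunit, had a difference of -0.25 (9.04 in LD, 8.80 in CE, 8.60 in RUN, 8.79 in H-RUN and 8.33 in L-RUN). Grin2d, by contrast, was at 8.26 in CE and 8.06 in LD, but its difference of 0.21 came to 0.076 with the GC trend removed. Grin1, the subunit that all NMDA receptors need, was at 13.39 in CE and 13.28 in LD (0.12, or 0.031 with the GC trend removed). LD was the highest library for Grin2a and Grin2b, whose transcripts are among the long ones. Of 50 calcium channel and store genes, Itpr1 was the 1 called, and 5 were lower and 0 higher at the cut-off of 0.2, among them Trpc6 (-0.27) and the R-type channel Cacna1e (-0.27).

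Receptors for monoamines and acetylcholine gave 2 higher calls and 0 lower calls among 30 expressed genes, with a median of 0.048. Besides Htr2c, Hrh3, the histamine autoreceptor that restrains transmitter release, was at 9.90 in CE and between 9.51 and 9.64 in the other 4 libraries. Its difference of 0.39 came to 0.28 with the GC trend removed, whereas that of Htr2c came to 0.52. The adrenergic receptor gene Adra2a had a difference of 0.23 and the serotonin receptor gene Htr1a one of -0.15. CE was the highest library for 17 of the 30 receptors, against 22.9% of all genes.

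Neuropeptides and their processing enzymes had 2 higher calls and 0 lower calls among 35 genes, Ecel1 and Sst. Sst, the somatostatin of dendrite-targeting interneurons, was at 11.71 in CE, 11.37 in LD, 11.57 in RUN, 11.42 in H-RUN and 11.68 in L-RUN. The endothelin-converting enzyme homolog Ecel1 was at 7.90 in CE, 7.53 in LD, 7.63 in RUN, 7.37 in H-RUN and 7.92 in L-RUN, so L-RUN was as high as CE. Pcsk1 and its inhibitor Pcsk1n, which govern prohormone cleavage, had differences of 0.23 and 0.26, whereas the granins Chgb and Scg2 had -0.16 each. With the GC trend removed, 0 members of the list were called.

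Some secreted and matrix genes were high in CE, but their lists as a whole were not far from 0. The median was -0.0065 for 45 enzymes of heparan and chondroitin sulfate and -0.020 for 30 laminins and integrins. Of 32 expressed collagen chains, 6 were called higher and 0 lower, yet the median of the chains was 0.041 and came to -0.015 with the GC trend removed, so the difference lay in these chains and not in the family. The 6 were Col6a1, Col1a2, Col5a1, Col6a2, Col1a1 and Col23a1, and all remained called with the GC trend removed. Col5a1 and the transmembrane collagen gene Col23a1 were highest in CE (10.18 and 9.57, against at most 9.92 and 9.35 elsewhere). For Col1a1 and Col1a2, fibrillar collagens made by fibroblasts, L-RUN was at least as high as CE. The sum over 28 leptomeningeal markers, on a log2 scale, was 13.06 in LD, 13.26 in CE, 13.81 in RUN, 12.95 in H-RUN and 14.31 in L-RUN. It was thus also higher in CE than in LD. The sum includes Col1a1, Col1a2 and Dcn themselves, and Ptgds (11.64 in LD and 11.94 in CE), so it is not independent of these genes. The part of such tissue in the collagen and decorin values was not tested. Timp2, an inhibitor of matrix metalloproteases, was at 13.005 in CE and between 12.48 and 12.68 elsewhere, as the 1 call among 40 metalloproteases and inhibitors. Sulf2, which trims sulfate groups from heparan sulfate at the cell surface, was at 11.27 in CE and between 10.93 and 10.99 elsewhere, and Chst8, a sulfotransferase, was at 8.36 against 8.06 to 8.10. These 3 genes stood apart in CE without a parallel in L-RUN.

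The TGF-beta and Wnt pathways, in which matrix proteins also act, gave calls in different places. Of 52 genes of the TGF-beta and BMP pathway, Thbs1, which activates latent TGF-beta, was called higher. Cd109, a coreceptor that dampens TGF-beta signaling, and Skil, a repressor of Smad proteins, were called lower, and the receptor gene Tgfbr1 was at 10.66 in LD and between 10.24 and 10.39 in the other libraries (-0.27). Cd109 and Skil were no longer called with the GC trend removed (-0.28 and -0.24). Of 45 Wnt and R-spondin genes, Lgr6 and Wnt4 were called higher and 0 were called lower. Wnt4 was at 8.85 in CE, 8.50 in LD, 8.63 in RUN, 8.58 in H-RUN and 8.79 in L-RUN, and Wnt9a had a difference of 0.28.

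Vacuolar ATPase and copine genes were split within their families. Of 20 expressed ATPase subunits, Atp6v0c was the 1 called, and the median of the list was 0.027. Atp6v1g2, the neuronal G subunit, had a difference of 0.24, whereas the catalytic subunit Atp6v1a had one of -0.20 (14.46 in LD and 14.26 in CE). Of the 9 copines, which bind membranes in response to calcium, Cpne7 and Cpne2 were called higher. Cpne7 was at 12.68 in CE and between 12.08 and 12.27 in the other libraries, and Cpne2 was at 10.66 in CE and between 10.16 and 10.39. Cpne4 (-0.24) and Cpne9 (-0.18) lay on the other side, and Cpne9 was lowest in CE of the 5 libraries. CE thus held both the highest and the lowest values of the family, gene by gene.

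**Figure D5:**
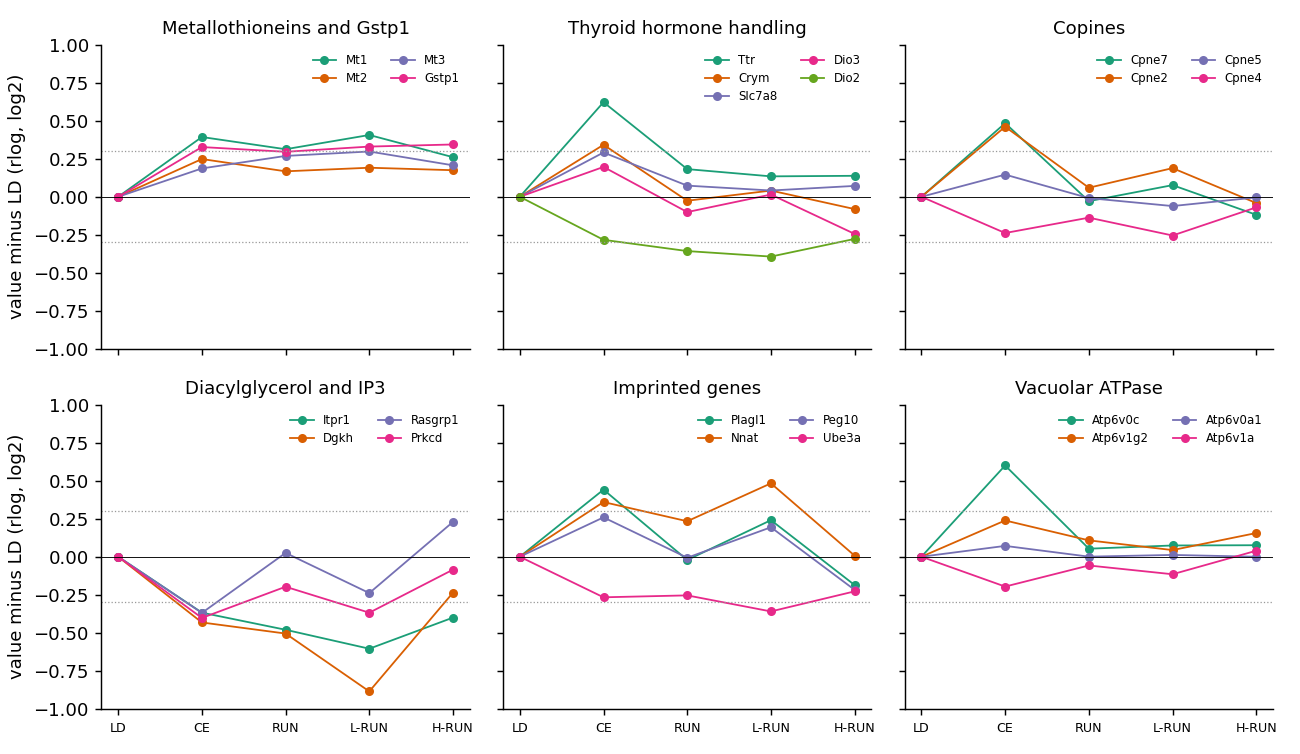
Rlog value minus the LD value (log2) of 25 genes of 6 groups in the 5 libraries, with a line joining the values of 1 gene and dotted lines at 0.3 and -0.3. Ttr, Crym, Cpne7, Cpne2 and Atp6v0c peak in CE, whereas the metallothionein genes and Gstp1 are higher than LD in all 4 other libraries and Itpr1 is lower in all 4.

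Imprinted genes were slightly high in CE. Of 44 expressed genes, 31 had a difference above 0, against 49.2% of all genes. The median was 0.056, and it was 0.055 with the GC trend removed. Plagl1 and Nnat (neuronatin, a proteolipid of the endoplasmic reticulum) were called higher and 0 were called lower. Nnat was at 12.98 in CE, 12.62 in LD, 12.85 in RUN, 12.63 in H-RUN and 13.10 in L-RUN. Peg10 (0.26), Dlk1 (0.26) and Gnas (0.23) were also higher at the cut-off of 0.2, and Ube3a, the ubiquitin ligase of Angelman syndrome, was the 1 gene lower (-0.27), with LD as its highest library. CE was the highest library for 19 of the 44 genes, against 22.9% of all genes.

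Regulators of chromatin and RNA gave mostly lower calls. In the cluster of KRAB zinc finger genes with Gm14 symbols on chromosome 2, the median of 13 expressed genes was -0.12 (-0.053 with the GC trend removed), and Gm14403 and Gm14295 were called lower. The list was taken by symbol, and Gm14403 is annotated as a noncoding RNA. Gm14403 had the largest negative difference of all genes, from 9.40 in LD to 8.87 in CE, with 9.04 in RUN, 9.14 in H-RUN and 8.94 in L-RUN. Gm14295 was at 11.43 in CE, 11.82 in LD and between 11.64 and 11.69 in the runners. These genes are near-identical copies, among which reads may be split, so the values of single members are uncertain. Of 328 Zfp symbols, 213 lay below 0, against 50.8% of all genes. Their median was -0.033 and came to -0.0054 with the GC trend removed. None of them was called, which is near the 0.266% of all genes called lower.

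Argonaute and deadenylase genes, which silence messages, had 2 lower calls and 0 higher calls among 43. Eif2c3 (argonaute 3) was at 9.29 in LD, 8.90 in CE, 8.80 in RUN, 8.9997 in H-RUN and 8.72 in L-RUN, and Eif2c2 (argonaute 2) had a difference of -0.23. The deadenylase paralogs Cnot6l and Cnot6 had differences of -0.300 and -0.29. Eif2c3 was still called after the GC trend was removed and Cnot6l was not (-0.23). With the length trend removed as well, Eif2c3 was no longer called (-0.27). Among 46 Polycomb and JmjC genes, Pcgf3 was called lower (10.07 in LD, 9.68 in CE and between 9.74 and 9.81 in the runners) and so was the demethylase gene Jhdm1d, whereas Pcgf2, a paralog of Pcgf3, had a difference of 0.25. Pcgf3 was still called with the GC trend removed and Jhdm1d was not (-0.25). Of 67 kelch-like and BTB adaptors of ubiquitin ligases, Klhl11 was the 1 called lower. LD was the highest library for Eif2c3, Cnot6l, Pcgf3, Jhdm1d and Klhl11.

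Energy and translation genes differed as a group by small amounts and gave 0 calls before any trend was removed. Of 87 oxidative phosphorylation genes, 61 were above 0, against 49.2% of all genes, and the median was 0.059 (0.048 with the GC trend removed). At the cut-off of 0.2, 9 were higher and 0 lower. Cox5b, a subunit of cytochrome oxidase, was at 12.13 in LD, 12.40 in CE, 12.37 in RUN, 12.29 in H-RUN and 12.44 in L-RUN, and Cox7b was at 12.25 in LD and between 12.42 and 12.57 in the other libraries. Cox7b was called higher with the GC trend removed (0.32) and with the GC and length trends removed (0.31). LD was the lowest library for 56 of the 87 genes, for 44 of 82 cytosolic ribosomal protein genes (median 0.037) and for 42 of 76 mitochondrial ribosomal protein genes (median 0.028), against 25.8% of all genes. Transcripts of these lists are short, with median lengths of 1232, 1077 and 1807 bases against 3519 for all genes, and the length trend of the LD library moved with them. With both trends removed, the medians were 0.039, 0.0089 and 0.020.

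Adhesion and guidance genes were often highest in CE, and 1 was called higher and 1 lower, against 0.332% and 0.266% of all genes. CE was the highest library for 37 of 74 genes of synaptic adhesion and for 33 of 68 genes of axon guidance, against 22.9% of all genes. Igsf21, which binds neurexin at inhibitory synapses, was called higher (8.78 in CE and between 8.48 and 8.57 elsewhere) and Cadm2 lower. At the cut-off of 0.2, 7 adhesion genes were higher and 2 lower, and 8 guidance genes were higher and 3 lower. With the GC trend removed, these counts came to 1 higher and 2 lower for adhesion and 4 higher and 2 lower for guidance. Lrrc4b, a postsynaptic organizer, stood just below the cut-off at 0.29984. The ephrin genes Efnb2 and Efna3 had differences of 0.27 and 0.26, whereas the receptor genes Epha5 and Epha3 had -0.25 and -0.23. With the GC trend removed, 0 genes of either list were called. Nptxr, the neuronal pentraxin receptor, belongs to the list of thrombospondins and synaptogenic proteins and was at 9.38 in CE, 9.04 in LD, 8.95 in RUN, 9.11 in H-RUN and 8.78 in L-RUN, and its difference of 0.34 came to 0.25 with the GC trend removed.

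Genes of activity, stress hormones and the clock held 1 call, which for lists of this size is near the 0.598% of all genes called. Of 40 immediate early genes, 0 were called and the median was 0.028 (0.0052 with the GC trend removed). CE was the highest library for 20 of them, against 22.9% of all genes. Jund (0.27), Junb (0.24) and Egr4 (0.21) were the 3 genes past 0.2, with 0.11, 0.13 and 0.047 left after the GC trend was removed. Of 24 glucocorticoid response genes, Mt1 was the 1 called, and the receptor genes Nr3c1 and Nr3c2 both had a difference of -0.14. Among 22 clock genes 0 were called. At the cut-off of 0.2, 2 of the 22 were higher and 1 lower, and 0 of either with the GC trend removed. Dbp was at 9.69 in CE, 9.43 in LD and between 9.17 and 9.29 in the runners, Nr1d1 was at 11.72 in CE and between 11.46 and 11.51 elsewhere, and Clock was at 11.15 in CE and 11.38 in LD.

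Marker lists gave small differences between the libraries in cell types and regions. The median of 26 granule cell markers was -0.10 (-0.075 with the GC trend removed), with 1 member called lower (Dgkh) and 5 lower at the cut-off of 0.2. On the other side, the median of 11 expressed genes of the subiculum and entorhinal cortex list was 0.12 (0.14 with the GC trend removed), with Gpr101, Cpne7 and Col5a1 called higher. That list was drawn up with large differences of these data known and is no independent sign of that tissue, and Scn4b, another of its members, had a difference of -0.28. Of 14 expressed CA1 markers, Dcn, Crym and Fibcd1 were called higher while the median was -0.029. The CA3 and CA2 markers, 15 in all, had a median of -0.012 (0.016 with the GC trend removed) and held 0 calls. The part of cell types and neighboring fields in Gpr101, Cpne7, Crym and Dcn was not tested.

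Of the other marker lists, the leptomeningeal one held the most calls. It had 4 higher calls (Col1a2, Col1a1, Dcn and Ptgds) and 0 lower among 24 genes, against 0.332% of all genes called higher. With the GC trend removed, 3 were called higher. The median was 0.070 (0.040 with the GC trend removed). This list, too, was chosen with earlier results of these data known. Of 33 interneuron markers, Sst was the 1 called, and CE was the highest library for 19, against 22.9% of all genes. Kit was at 10.57 in CE, 10.30 in LD and between 10.06 and 10.10 in the runners. Among 11 expressed choroid plexus markers, Ttr was the 1 called, and the others had differences from -0.071 to 0.066, among them Enpp2 at 0.0052. Microglial markers lay below 0 for 22 of 27 genes (median -0.073, with Ctss at -0.20), against 50.8% of all genes. Oligodendrocyte markers did so for 18 of 23 (median -0.057), whereas the median of 14 oligodendrocyte precursor markers was 0.084. Astrocyte (0.049), endothelial (-0.023), pericyte (0.023), neuroblast (0.0072) and proliferation (0.0055) lists held 0 calls. None of the 6 red blood cell genes had a mean of at least 5, and Hba-a1, Hba-a2 and Hbb-b2 were listed at 0.

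Called genes were not spread evenly over the chromosomes. Chromosome 2 held 9 higher and 7 lower calls among 1080 genes, against 0.332% and 0.266% of all genes. Chromosome 13 held 0 of either among 497. Within 0.5 Mb, Col6a1 had Col6a2 and Mt1 had Cpne2 as a called neighbor in the same direction, and no other called gene with a position had one. Gm14295 and Gm14403, both called lower in the Gm14 cluster of chromosome 2, lie farther apart than that. Glo1 (chr17:30592861-30612659, GRCm38) and Cwc22 (chr2:77881159-77946356) lie in segments known as background to vary in copy number between laboratory mice. The next genes to Glo1 were Btbd9 (-0.16) and Dnahc8 (-0.11), and Zfand3 was at 0.071. Cwc22, a splicing factor, was at 13.68 in LD, 13.24 in CE, 13.32 in RUN, 13.69 in H-RUN and 12.54 in L-RUN, and its neighbor Zfp385b had a difference of 0.099. For genes such as these, the genotypes of the mice in a pool and their housing cannot be told apart.

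Calls in the remaining families are read against the 0.598% of all genes called. Vps13c, a lipid transfer protein at contacts of the endoplasmic reticulum, was the 1 call among 31 vacuolar sorting genes (12.27 in LD, 11.91 in CE, 11.95 in RUN, 12.08 in H-RUN and 11.79 in L-RUN). Ly6h, a modulator of nicotinic receptors, was the 1 call among 9 Ly6 genes, at 12.50 in CE and between 12.12 and 12.34 elsewhere. In the list of antigen presentation, Mif, a cytokine that binds Cd74, was called higher (0.31) and Cd74, the invariant chain, lower (-0.43), while the median of 13 genes was -0.013. Removal of the GC trend ended the call of Mif (0.19) and not that of Cd74 (-0.50). The prostaglandin list of 17 genes, which also holds Mif and Cd74, had 2 higher calls (Mif and Ptgds) and 1 lower, and 0 higher with the GC trend removed. No member was called among 83 chaperones, 70 potassium channels, 59 growth factors and receptors, 45 proteasome subunits, 30 laminins and integrins, 16 interferon response genes, 13 GABA receptors and 10 metabotropic glutamate receptor and Homer genes, and their medians ran from -0.044 to 0.0096. Of the 66 lists with expressed members, 28 held no call in either direction.

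Several called genes belonged to no list. Foxo6, a forkhead factor of the hippocampus, was at 9.57 in CE and between 9.20 and 9.28 elsewhere, but its transcript has a GC content of 69.1% and its difference of 0.31 came to 0.14 with the GC trend removed. Vgll3, a cofactor of TEAD proteins, was at 8.66 in CE and between 8.27 and 8.33 elsewhere, and its difference went from 0.34 to 0.40. Ldb2, an adaptor of LIM-homeodomain factors, was at 8.36 in CE and between 7.95 and 8.09 elsewhere. For both Vgll3 and Ldb2 CE stood alone, and removal of the GC trend made the difference larger. Baiap3, which acts in dense-core vesicle traffic, was at 9.47 in CE and 9.03 in LD, but L-RUN was higher still (9.60). Among the lower calls, Scai, a suppressor of invasion that acts on the MRTF cofactors, was at 11.56 in LD, 11.19 in CE and between 11.29 and 11.40 in the runners, and Lnpep, the insulin-regulated aminopeptidase, was at 9.15 in LD, 8.80 in CE, 8.68 in RUN, 8.94 in H-RUN and 8.43 in L-RUN. Both were no longer called with the GC trend removed (-0.299 for Scai and -0.29 for Lnpep).

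The thresholds were narrow for some genes. Pcdhb6 and Iqcd had means just above 5 and Actl10 and Cubn just below, with differences from -0.026 to 0.039. At the cut-off of 0.3, Cnot6l (-0.3002), Ptgds (0.301) and Igsf21 (0.3029) were just inside, whereas Lrrc4b (0.29984), Cd44 (0.29948) and Fezf2 (0.29863) were just outside.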

How the data were processed

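RNA sequencing (polyA) had been performed on 5 libraries of mouse DG, each pooled from RNA of 8 mice (LD, CE and RUN) or 4 mice (L-RUN and H-RUN). Per the labels and the study's methods, the authors mapped reads to mm10 with TopHat2 2.0.10, counted them per gene with HTSeq, and used DESeq2 1.10.1 to make the rlog values. The deposited values are therefore on the log2 scale, normalized over all libraries at once and shrunk by an amount that depends on counts, which were not used here. The depth of each library is unknown, and no interval from counting is given.

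CE minus LD was taken per gene, and a gene was called at 0.3 or more in size. With 1 library per group, no test was run. The technical SD came from the residual of RUN against H-RUN and L-RUN mixed in equal parts before the log, as a median absolute deviation in each decile of expression, scaled to a difference between 2 libraries. Transcript length and GC content came from the longest GENCODE transcript on GRCm38. Gene positions and biotypes came from RefSeq, and both were matched by symbol or RefSeq synonym. Trends were removed with a lowess curve (fraction 0.3). Promoter windows were RefSeq sequence of GRCm38.p6, and 74.2% of the genes had one.

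Named were the 15 genes with the largest difference in each direction, the members of each of 67 lists that were called, had the largest difference (up to 3) or the highest level (3), granule cell markers, genes at the thresholds, and the 5 genes with the largest distance of CE or of LD from the nearest library on each side. Dio2, Dio3, Med1, Aldh1a1, Aldh1a2, Aldh1a3, Mgst3, Tcf7l2, Slc17a6, Peg10, Dlk1, Eif2c2, Cpne5, Cpne9, Tgfbr1, Scn4b, Grin1, Pcsk1, Epha3, Nr3c1, Cd44 and the neighbors of Glo1 and Cwc22 were named after their values were seen. A few genes are not reported here. The members and lists were chosen with earlier results of these data known. Scripts were tested on simulated data and run with matplotlib 3.10.9, statsmodels 0.14.6, scipy 1.17.1, pandas 2.3.3, numpy 2.4.6 and python 3.11.15. Alternatives were other cut-offs, minimum means, scalings and baselines, and removal of trends with level, length and GC content, the last chosen after seeing the data.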

Additional observations from a re-analysis of the deposited data

Results flagged for a closer look

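Fibcd1, which encodes an acetyl-binding receptor of CA1 pyramidal cells, had differences from LD of opposite sign. It was at 10.35 in LD, 10.66 in CE, 9.89 in RUN, 9.83 in H-RUN and 9.90 in L-RUN. CE was higher than LD by 0.31, whereas each running library was lower than LD by more than 0.3, and the runners share their mice. This difference between housing conditions was not tested, since each rested on 1 library. With the GC trend removed, CE minus LD was 0.22 for this gene.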

How the results depend on the processing

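A cut-off of 0.2 gave 511 called genes (265 higher and 246 lower), and one of 0.4 gave 25 (16 higher and 9 lower). With the mean of LD and RUN as the baseline, 44 genes were called and 9 of them were lower, of which 34 in all were also called against LD, and Ptgds turned from 0.30 to -0.37. Removal of the length trend left 21 lower calls, and removal of the GC and length trends left 18. Centring, quantile normalization, a minimum mean of 7, no minimum, a further limit of 3 technical SD and removal of the trend with level gave 77 to 86 calls. With the GC trend removed, 16 of 66 list medians and 25 of 361 named genes changed sign, and 17 and 36 did with the mean of LD and RUN as the baseline. No paired analysis was possible because each group had 1 library, and for the same reason no library could be left out. The depth of each library is unknown, which limits what can be said of genes with low values.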

Other observations

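Some genes with a mean below 5, which were left out of the comparison, also had their highest value in CE. The noncoding RNA gene H19 was at 4.78 in CE and between 4.52 and 4.59 in the other 4 libraries. Lox, which crosslinks collagen, was at 4.87 in CE and between 4.63 and 4.73 elsewhere, and Postn, a matrix protein of fibroblasts, at 4.62 and between 4.44 and 4.47. CE stood above the other libraries for all 3 genes, at levels where shrinkage of the values is strong.

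A few genes just short of the cut-off of 0.3 were also set apart in CE. Wdr6 was at 12.31 in CE and between 11.94 and 12.04 in the other libraries, and Trhr, the receptor for thyrotropin-releasing hormone, was at 8.88 in CE, 8.60 in LD, 8.57 in RUN, 8.35 in H-RUN and 8.70 in L-RUN. The G protein gamma subunit gene Gng10 was at 10.77 in CE and between 10.98 and 11.06 elsewhere. These genes were picked after their values were seen.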
